A study of Danio rerio with 6 samples.

Results

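The Pim-related kinase genes of zebrafish, whose symbols are pimr followed by a number, are a family of many similar copies named for their likeness to the Pim serine/threonine kinases. They were taken as all genes with such a symbol whose Ensembl identifier was in the table of normalized counts and above 0 in at least 1 library. The table of gene names held 180 pimr symbols, of which 108 had an identifier in the deposited table. Of these, 15 were at 0 in all 6 libraries and 93 were above 0, out of 26248 features above 0 and 32267 in all. At the edge of this rule, 4 of the 93 copies had a single read over the whole series. The members are similar in sequence, so the reads of 1 copy may have been counted for another, and the value of a single copy is uncertain for that reason.

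RNA was sequenced from whole kidney marrow of zebrafish of the background strain TLEK, used as unfractionated cells. The 3 control libraries came from wt fish. The 3 mutant libraries came from fish with an internal deletion in il7 that takes out exons 2 to 4, and the study asked what this cytokine does in the development of lymphocytes. Sex, age and the number of fish behind each library are not in the labels. The p-values therefore speak to the spread among these 6 libraries, part of which may be technical.

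In mammals the classical Pim kinases are active as soon as they are made, so their activity follows their transcription. That transcription is switched on by cytokines through JAK kinases and STAT factors, interleukin 7 among them, and the kinases promote the survival and growth of blood cells, for example by phosphorylating the death-promoting protein BAD. Zebrafish has the classical genes PIM1, pim2 and PIM3 as well as the pimr copies.

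The libraries held between 34496353 and 46120889 reads in genes. The targeted gene il7 had between 52 and 114 reads in the control libraries and between 4 and 18 in the mutant libraries. Markers of the marrow were present in all libraries, such as lyz of neutrophils, hbaa1 of red cells and cd79a of B cells, and of the 11 marker lists used here only 3 matched genes, myhz1.1, atp1a1a.4 and MFAP4, were at 0 throughout. Control 1 and il7 mutant 2 stood apart by oocyte transcripts: the 13 matched oocyte genes summed to 304329 and 143530 normalized counts there, and to between 228 and 623 in the other libraries.

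The pimr family was split by library and not by genotype. Control 3 and il7 mutant 3 held the most copies and the most reads, il7 mutant 1 came next, and control 1, control 2 and il7 mutant 2 held few. A copy is called on here in a library with at least 10 reads and off with 0 reads. In controls 1, 2 and 3 the number of copies on was 7, 3 and 49, and in il7 mutants 1, 2 and 3 it was 18, 4 and 49. In the same order, 54, 68 and 7 copies were off in the controls and 26, 55 and 12 in the mutants. At least 1 read was seen for 86 copies in control 3 and for 81 in il7 mutant 3, against 25 in control 2.

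**Figure D1:**
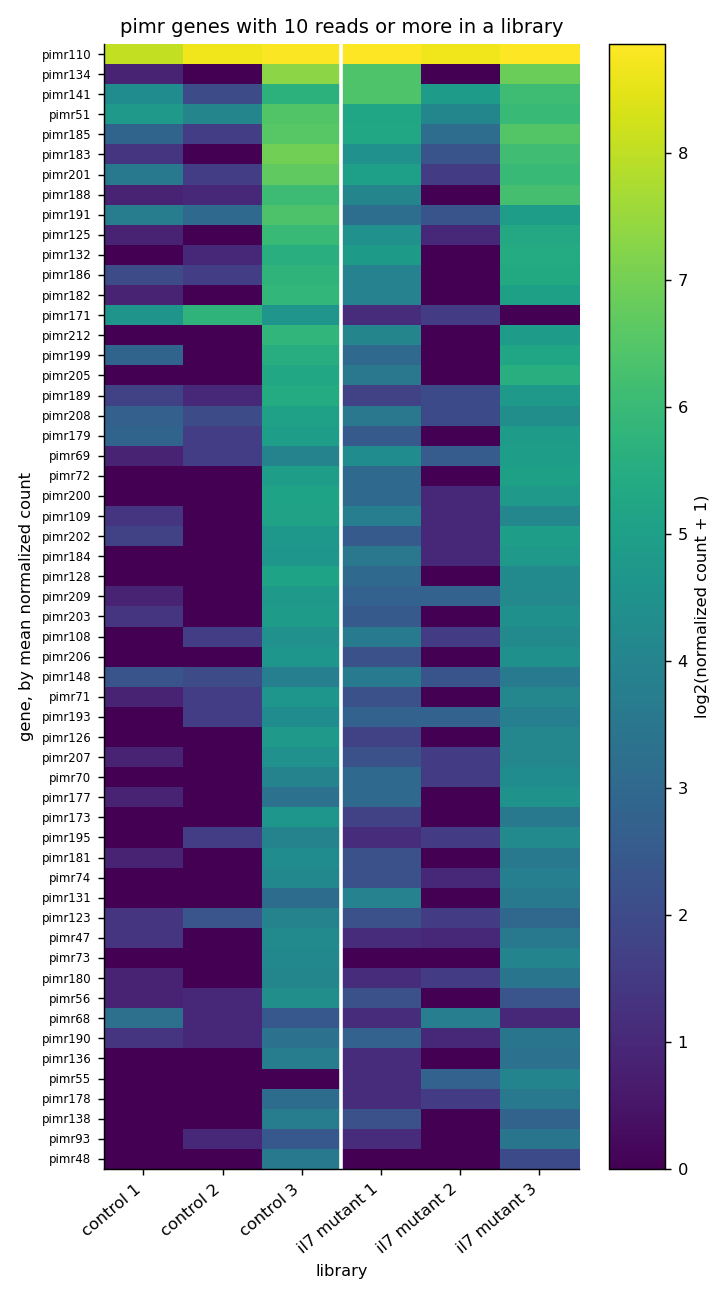
Colour shows log2(normalized count + 1) for each of the 56 pimr genes that had at least 10 reads in a library (rows, ordered by mean normalized count) in each of the 6 libraries (columns, with a white line between genotypes). Control 3, il7 mutant 3 and, less so, il7 mutant 1 are bright down the column, while pimr110 is bright in every library and pimr171 in the controls.

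Over all copies other than pimr110, the normalized counts summed to 161 in control 1, 114 in control 2 and 2025 in control 3. They summed to 664 in il7 mutant 1, 144 in il7 mutant 2 and 1547 in il7 mutant 3. The controls alone spanned the whole range, since control 3 was 17.7 times control 2 and 12.5 times control 1. Among the mutants, il7 mutant 3 was 10.8 times and il7 mutant 1 was 4.62 times il7 mutant 2. By genotype the sum was 767 ± 1090 in controls and 785 ± 709 in mutants (SD, n = 3 each), so the means differed by far less than the spread within either genotype. Sequencing depth did not run with it: the deepest library, control 1, had 205 reads of these copies, and control 3, with fewer reads in genes, had 1825.

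Of the 93 copies, 56 were on in at least 1 library, and 43 of these (76.8%) were on in 1 library and off in another. Over all features on in at least 1 library the same held for 5.64%. Low genes reach 0 more easily. Among all features whose highest library held between 10 and 143 reads, which is the range of the pimr copies without pimr110, the share was 16.4%, against 43 of 55 pimr copies (78.2%). Only the ends of that range were matched. Many pimr copies lay near its lower end, so these shares are not matched for level within it. The count of 43 depends on the libraries rich in these copies: it was 11 without control 3 and il7 mutant 3, an alternative added after seeing the data. Fewer copies were on at all without them: 25 were on in these libraries alone, 5 in control 3 alone and 5 in il7 mutant 3 alone. The share over all features is not given for that setting, so the 11 cannot be set beside 5.64% or 16.4%. For comparison, with all libraries kept, nitr genes gave 2 of 7. They are another zebrafish family of similar copies and encode immune-type receptors.

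The set of libraries in which a copy was on took few forms. There were 25 copies on in control 3 and il7 mutant 3 alone, among them pimr199, pimr205, pimr72, pimr200 and pimr128, and 13 on in these and il7 mutant 1, among them pimr134, pimr185, pimr183, pimr188, pimr125 and pimr132. Another 5 were on in control 3 alone (pimr123, pimr56, pimr136, pimr138 and pimr48) and 5 in il7 mutant 3 alone (pimr177, pimr190, pimr55, pimr178 and pimr93). Only pimr110 and pimr51 were on in all 6 libraries. The other 6 on copies were pimr141, pimr201, pimr191, pimr131, pimr68 and pimr171, each with a set of its own. In the remaining 37 copies no library went above 9 reads.

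The most divided of the abundant copies was pimr134 (ENSDARG00000094146). Controls 1, 2 and 3 held 0.788, 0 and 159 of its normalized counts, and il7 mutants 1, 2 and 3 held 84.9, 0 and 116. Control 2 and il7 mutant 2 held no read of it, where 0 reads allow up to 3.03 and 2.97 normalized counts (3 reads, counting error only), so it was present and undetected within each genotype. For pimr183 (ENSDARG00000041462) the values were 1.58, 0 and 124 in the controls and 21.2, 3.97 and 69.9 in mutants. For pimr188 (ENSDARG00000068190) they were 0.788, 1.01 and 65.5 in the controls and 15.3, 0 and 74.9 in mutants. In both, the low libraries were again control 1, control 2 and il7 mutant 2.

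Some copies with reads in every library had the same high libraries. pimr185 (ENSDARG00000006109) was at 6.30, 2.02 and 93.2 normalized counts for controls 1, 2 and 3 and at 37.7, 7.93 and 88.9 for il7 mutants 1, 2 and 3. pimr201 (ENSDARG00000092561) had 11.03, 2.02 and 102 in controls and 30.6, 1.98 and 62.9 in mutants. pimr51 (ENSDARG00000069033), on throughout, had 26.0, 15.2 and 86.5 in controls and 36.5, 15.9 and 62.9 in mutants. Of the 93 copies, 83 (89.2%) had their highest value in control 3 or il7 mutant 3, a place that 32.9% of all features took. Of the 26 copies whose normalized counts averaged 10 or more, 22 had control 3, il7 mutant 1 and il7 mutant 3 all above the other libraries, against 12.5% of all features with such a mean. This order was noticed in the data and then counted. Over all 93 copies it held for 50, against 11.5% of features above 0. Without control 3 and il7 mutant 3 a mean of 10 was reached by 7 copies, so the count of 22 describes copies that mostly passed through those libraries and not the family. Some of the 93 copies also had reads only there, such as pimr119 in control 3 and pimr73 in control 3 and il7 mutant 3. Shares over the 93 copies that favour these libraries are therefore partly fixed by the rule of membership.

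Control 3 and il7 mutant 3, one of each genotype, resembled each other in which copies they held. Spearman's rho over the 93 copies was 0.87 between them, 0.81 between control 3 and il7 mutant 1 and 0.85 between il7 mutants 1 and 3. It was 0.41 between controls 2 and 3 and 0.31 between il7 mutants 2 and 3. These are descriptions across copies that share reads and libraries, with many ties at 0 in the low libraries. Among the 42 copies other than pimr110 that were on in both control 3 and il7 mutant 3, the ratio of control 3 to il7 mutant 3 had a median of 1.32. It ran from 0.481 for pimr69 to 2.74 for pimr191, and 33 of the 42 copies were higher in control 3.

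Meiosis genes were also high in control 3 and il7 mutant 3. DMC1, the recombinase of meiotic strand exchange, was at 0.788, 1.01 and 183 normalized counts for controls 1, 2 and 3 and at 12.97, 0.992 and 76.9 in il7 mutants 1, 2 and 3. SYCP3, a component of the axis of meiotic chromosomes, had 15.8, 8.08 and 653 in controls and 41.3, 14.9 and 242 in mutants. In both genes control 3 was highest, followed by il7 mutant 3 and then il7 mutant 1, as in the pimr sum. Of the 8 matched genes of the meiosis and testis list, 5 had control 3 and il7 mutant 3 above all other libraries, as had 68 of the 93 pimr copies (73.1%) and 9.84% of all features above 0. Of these 5, DMC1 and SYCP3 also had il7 mutant 1 above the rest.

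The summed list did not follow that order. It ranged from 731 to 18612 normalized counts in controls and from 1039 to 12557 in mutants and was highest in the oocyte-rich libraries, through the cyclin gene CCNA1. Without CCNA1 the list stood at 1267, 700.2 and 5375 in controls 1, 2 and 3 and at 1007, 1397 and 2945 in il7 mutants 1, 2 and 3. Control 3 and il7 mutant 3 were then highest, but il7 mutant 1 stood below il7 mutant 2 and control 1. The list member sycp2 was at 0 in control 2.

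The summed muscle, liver, kidney tubule and erythroid lists, 4 of the 11, also had control 3, il7 mutant 1 and il7 mutant 3 above the other libraries, but only some of their genes did: ckma and ckmb of 5 matched muscle genes, apoa2 of 8 liver genes, SLC22A2 of 5 kidney tubule genes, and hbaa1 and hbaa2 of 3 erythroid genes. The muscle list summed to 6346, 4077 and 69963 in controls and 130614, 14659 and 16559 in mutants, so its highest library was il7 mutant 1. The liver list summed to 959, 2047 and 16893 in controls and 29514, 5895 and 14427 in mutants. The kidney tubule list ranged from 98544 to 329263 in controls and from 192942 to 311827 in mutants, and the erythroid list from 58895 to 331226 and from 165166 to 448341. The part of any of these tissues in the pimr counts was not tested, and in unsorted marrow more cells of a type and more RNA per cell cannot be told apart.

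**Figure D2:**
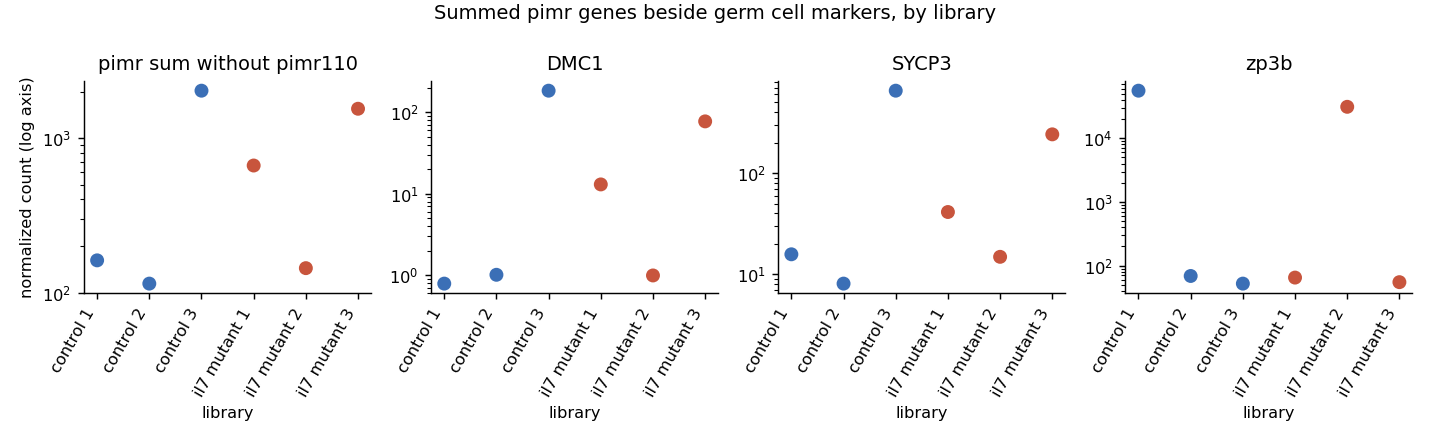
Points show the normalized count in each library, on a log axis that differs between panels, for the pimr genes summed without pimr110, the meiosis genes DMC1 and SYCP3 and the egg coat gene zp3b, with controls in blue and il7 mutants in red. The pimr sum, DMC1 and SYCP3 are highest in control 3, then il7 mutant 3, then il7 mutant 1, while zp3b is high in control 1 and il7 mutant 2.

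pimr68 (ENSDARG00000038955) went with the oocyte-rich libraries instead. It had 11 and 13 reads in control 1 and il7 mutant 2, and between 1 and 4 reads in the others. Its group means of 4.70 ± 3.83 and 5.02 ± 6.81 normalized counts (SD, n = 3 each) did not separate. This copy was singled out after its values were seen. Of all features above 0, 30.2% had their highest value in control 1 and 8.29% in il7 mutant 2. The share with both of these libraries above all others is not given, so the order seen in pimr68 has no like comparison.

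pimr171 (ENSDARG00000095461) separated the genotypes. Earlier results of these same data had named it, so its values, interval and p-values are a description. It had 29, 52 and 21 reads in controls 1, 2 and 3 and 1, 2 and 0 reads in il7 mutants 1, 2 and 3. As normalized counts these were 22.8, 52.5 and 23.3 for the controls and 1.18, 1.98 and 0 for the mutants, or 32.9 ± 17.02 and 1.05 ± 0.997 (SD, n = 3). Every control library stood above every mutant library, and the libraries rich in other pimr copies did not stand out: control 3 was within the range of controls and il7 mutant 3 had no read. Summed over libraries, 102 control reads stood against 3 mutant reads, a depth-adjusted ratio of 30.7 with an exact 95% interval of 10.2 to 152 that covers counting error only.

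The call on pimr171 depended on the test. In the authors' deposited table the unshrunken log2 fold change was −4.97, the shrunken one was −2.10 and the adjusted p was 0.00225. There it was 1 called copy of the 50 pimr genes given an adjusted p, against 0.521% of all 21481 features with one. In limma the change on the log2(normalized count + 1) scale was −4.07 (SE 0.75), with an unadjusted p of 0.00125 and an adjusted p of 0.724. Leaving out control 1 or 3 or any mutant library kept the change between −4.41 and −3.62. Without control 2, which held about as many of its reads as the other controls together, the mean fell under the filter and no change was fitted.

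**Figure D3:**
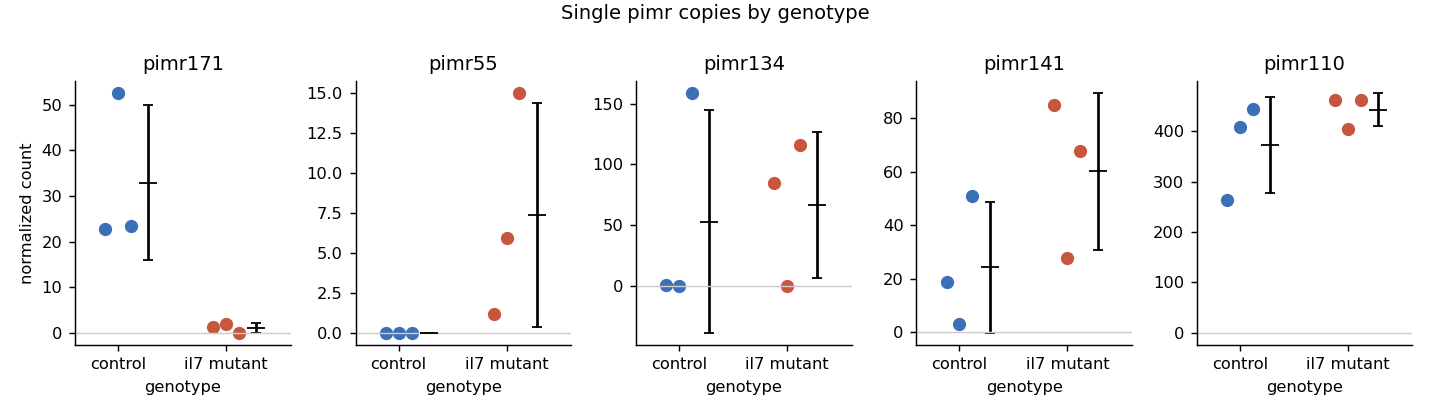
Points show the normalized count of 5 pimr copies in each control (blue) and il7 mutant (red) library, on a scale that differs between panels, and the black marks show the mean and SD of 3 libraries. pimr171 is separated by genotype and pimr55 is at 0 in every control, whereas the genotypes overlap in pimr134, pimr141 and pimr110.

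No pimr copy was on in all 3 libraries of 1 genotype and off in all 3 of the other, a pattern that 0.00442% of features on in any library showed. With up to 3 reads taken as off, 1 copy met it, pimr171. The share over all features is not given for that looser setting, so this count cannot be set beside 0.00442%. The copy pimr55 (ENSDARG00000057769) was at or above 10 reads in il7 mutant 3 alone, so it did not meet that pattern either, but it had 0 reads in every control and 1, 6 and 15 reads in il7 mutants 1, 2 and 3. Its normalized counts in mutants were 7.37 ± 7.01 (SD, n = 3). The authors' deposited table gave it an unshrunken log2 fold change of 5.39, a shrunken one of 0.63 and no adjusted p. Its mean was under the filter used with limma. pimr46 (ENSDARG00000071745) had 0, 0 and 3 reads in controls and 4, 5 and 5 in mutants, also without overlap. With pimr171 these were the 3 of 93 copies without overlap, against 7.78% of all features above 0. pimr46 was singled out after its values were seen.

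pimr110 (ENSDARG00000016605) was the most counted copy and the most even. Controls 1, 2 and 3 had 264, 408 and 445 of its normalized counts, and il7 mutants 1, 2 and 3 had 462, 405 and 462. Its highest library was 1.75 times its lowest, where the sum of the other copies varied 17.7 times. The group means were 372 ± 95.7 and 443 ± 33.1 (SD, n = 3 each), and the groups overlapped. Its limma change was 0.28 (SE 0.28), the smallest error among the fitted copies. pimr141 (ENSDARG00000057253) had 18.9, 3.03 and 51.0 in controls and 84.9, 27.8 and 67.9 in mutants. Here il7 mutant 1, not control 3, was highest, and the groups overlapped between il7 mutant 2 and control 3, with a limma change of 1.78 (SE 1.01) and an adjusted p of 1.00.

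Across the 26 fitted copies, limma called 0 at an adjusted p under 0.05, against 0% of the 20782 features fitted, and 1 (pimr171) at an unadjusted p under 0.05, against 3.48% of all. The remaining 67 copies were under the mean of 10, with pimr184 at 10.5 just inside and pimr128 at 9.91 just outside. The changes were above 0 for 21 copies and below 0 for 5, with a median of 0.80 beside −0.04 over all features fitted. That median turned to −0.35 over the 18 copies fitted without il7 mutant 3, and stood at 0.07 over 29 copies without control 2, 0.10 over 30 without control 1, 0.51 over 29 without il7 mutant 1, 1.93 over 30 without il7 mutant 2 and 2.57 over 16 without control 3. In the authors' deposited table the median of the unshrunken log2 fold change was −0.01 over the 93 copies, with 45 above 0 and 48 below, beside −0.08 over all features. The 93 include the 67 copies not fitted by limma, so these counts and those of limma cover different sets. Some of the 21 copies above 0 in limma were negative in the authors' deposited table, such as pimr183 at −0.40 beside 1.53 in limma. Others were positive in both, such as pimr69 at 1.67 beside 1.82. The errors were wide, with a median SE of 1.64 over the copies and 0.43 over all features, and for 23 of the 26 copies the SE was larger than the change. The genotypes did not overlap for 1 of the 26 copies (3.85%), against 7.94% of all features fitted.

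**Figure D4:**
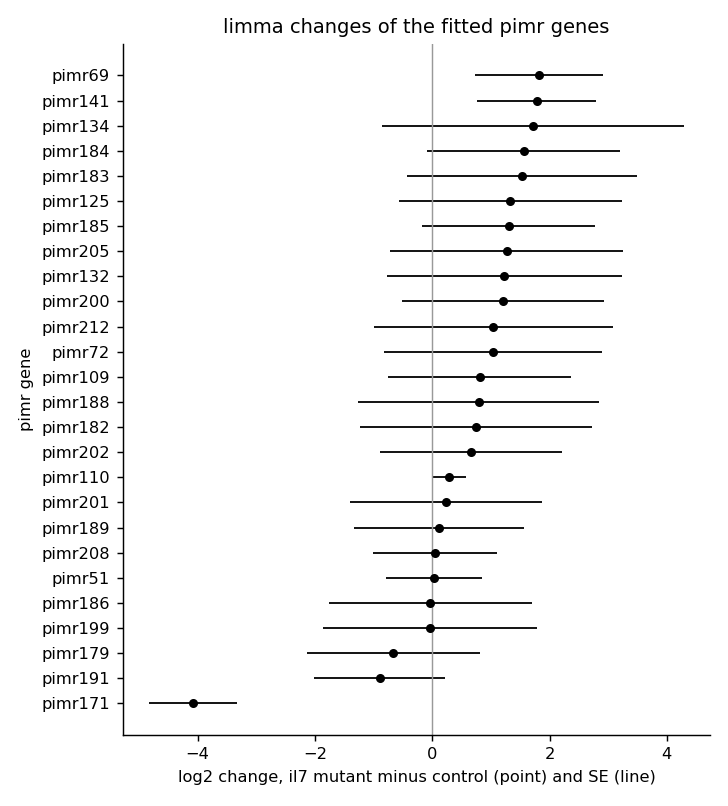
Points show the limma log2 change of il7 mutant minus control on the log2(normalized count + 1) scale for each of the 26 fitted pimr genes, and lines show 1 SE on each side. pimr171 at −4.07 lies apart from the others, which run from −0.89 for pimr191 to 1.82 for pimr69, and 23 of the 26 lines cross 0.

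Position in the genome was known for some of the copies. By symbol, 47 of the 93 were found in the RefSeq genes of assembly GRCz12tu, which is not the build of the files, so only the order of genes was used. Of the 94 protein-coding pimr genes there, 39 lay directly beside another, in 14 runs of neighbours. The longest run held 8 genes, pimr141, pimr52, pimr49, pimr140, pimr51, pimr50, pimr53 and pimr54, of which 5 were members here. It held pimr141 and pimr51, which had reads in every library, beside pimr50, pimr53 and pimr54, which never reached 10 reads in a library. The divided copies pimr134 and pimr132 were neighbours, and pimr132 had 0, 1.01 and 46.6 normalized counts in the controls and 27.1, 0 and 43.0 in mutants, so the same 3 libraries were high in both. pimr171 was not matched by symbol.

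Of the classical kinases, PIM1 was lower in every mutant library, pim2 was higher on average and PIM3 varied within both genotypes. PIM1 (ENSDARG00000100020) was at 6936, 5335 and 7388 normalized counts for controls 1, 2 and 3 and at 2269, 4147 and 4834 for il7 mutants 1, 2 and 3. The groups did not overlap, and the limma change was −0.86 (SE 0.33, adjusted p of 1.00). With single libraries left out that change ran from −1.08 to −0.54. pim2 (ENSDARG00000059001) had 659, 1797 and 2531 in controls and 4462, 1910 and 4347 in mutants. Its groups overlapped through il7 mutant 2, with a change of 1.21 (SE 0.58, adjusted p of 1.00). With single libraries left out the pim2 change ran from 0.64 to 1.61. Without both oocyte-rich libraries, control 1 and il7 mutant 2, it was 1.05 (SE 0.23, adjusted p of 0.635). PIM3 (ENSDARG00000055129) had 1090, 446 and 4305 in controls and 536, 869 and 2388 in mutants, so it was highest in control 3 and il7 mutant 3, and its change of −0.30 (SE 0.92) turned positive without control 3, at 0.57, or without il7 mutant 1, at 0.17, and was −1.06 without control 2 and −0.91 without il7 mutant 3.

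**Figure D5:**
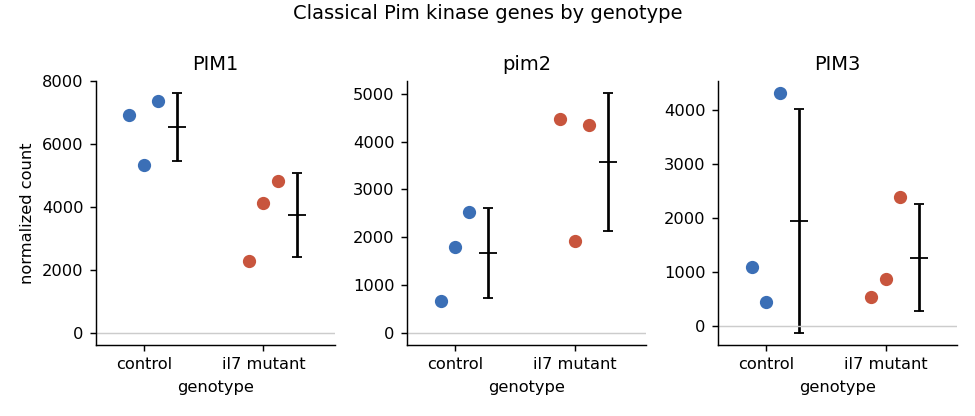
Points show the normalized count of PIM1, pim2 and PIM3 in each control (blue) and il7 mutant (red) library, on a scale that differs between panels, and black marks show the mean and SD of 3 libraries. PIM1 is separated by genotype, with every mutant library under 5335, and the genotypes overlap in pim2 and PIM3.

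Of 43 listed genes of the Pim pathway, 30 were matched and fitted. Limma called 0 of them at an adjusted p under 0.05 and 3 at an unadjusted p under 0.05, against 3.48% of all features. These were mych, PIM1 and il7, all with negative changes. il7 is itself the gene targeted by the deletion, and the list was chosen with earlier results of these data known. The counts for this list are therefore a description. In the authors' deposited table mych and il7 were called, both as lower. Of all features with an adjusted p, 0.521% were called in either direction and 0.312% as lower. The gene mych, a member of the Myc family of growth regulators, had 3695, 5985 and 5259 normalized counts in the 3 controls and 1563, 1883 and 1659 in the mutants. Its limma change was −1.52 (SE 0.24, adjusted p of 0.556), while in the authors' deposited table its unshrunken log2 fold change was −1.55, at an adjusted p of 2.97e-04. Over the 30 genes, 9 changes were above 0 and 21 below, with a median of −0.28, where 54.1% of all features fitted were below 0. The genotypes did not overlap for 6 of the 30 genes, il7 included and all lower. Over all features fitted, 7.94% did not overlap in either direction and 4.44% were lower without overlap. CISH, a feedback inhibitor induced by STAT5, split the mutants: it had between 2766 and 3078 in controls, 363 and 564 in il7 mutants 1 and 3 and 3640 in il7 mutant 2.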

How the data were processed

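The assay was stranded sequencing of total RNA from whole kidney marrow, per the labels' protocols, with ribosomal RNA depleted. The tools in the submitters' processing notes, whose roles are not stated, are STAR 2.5.3a, featureCounts 1.5.2 and DESeq2 1.14.1, with build GRCz10. How the authors counted multi-mapping reads is not known here, so reads of near-identical pimr copies may be split or lost. The deposited signal is a normalized count per gene. The authors' deposited table holds a log2 fold change, shrunken and unshrunken, a p-value with its adjusted value, and a deposited Wald score that was not used.

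In each library all normalized counts were whole multiples of the lowest value above 0, to within 1e-06. These multiples are the reads printed here. No count model was run on them, since a check of units did not accept libraries in which the value of 1 read was close to 1. Symbols matched 26433 features (81.9%). Features whose normalized counts averaged 10 or more were tested on log2(normalized count + 1) by limma 3.58.1 (R 4.3.3) with a trended prior variance, and p-values were adjusted by Benjamini-Hochberg over all fitted features at 0.05. This scale shrinks the fold changes of low genes. The limma step was tested on simulated data. No simulated gene was given a spread above the median of the real genes, so that check does not cover genes as variable as most pimr copies.

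The members, lists and tests were chosen with earlier results of these data known. Copies named by rule were pimr171, those called in either table, the 10 highest, those on and off, and the 5 largest changes each way. Others lie outside that rule. pimr46, pimr68, pimr119, pimr123 and pimr190 are named for their values, and pimr50, pimr53 and pimr54 for their place in the genome. The Pim list and the oocyte, meiosis and testis, muscle, liver, kidney tubule, neutrophil, erythroid, T cell, B cell, thrombocyte and macrophage markers were matched by symbol. Settings varied were the pseudocount, the low-value filter, the scaling, sample weights, a replicate block, the read thresholds and the libraries included.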

Additional observations from a re-analysis of the deposited data

How the results depend on the processing

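Limma called 0 genes, pimr genes and Pim list genes under all 15 alternatives. The pimr171 change kept its sign in the 13 alternatives that fitted it, between −4.61 and −2.57, where the smaller value came with a pseudocount of 5. It was not fitted without control 2 or with the filter at 50. The count of 43 copies on and off was 25 with on set at 20 reads and 11 without control 3 and il7 mutant 3 together. Both settings also lower the number of copies that can be on. That number and the share over all features are not given for them, so these counts are not shares. The count of 0 by genotype was 1 with up to 3 reads as off, a setting for which the share over all features is not given either. Of the 26 fitted copies 5 had changes below 0, beside 54.1% of all features. This was 2 of 26 with array quality weights (51.5% of all features) and 2 of 36 without both oocyte-rich libraries (51.8%). It was 1 of the 7 fitted without control 3 and il7 mutant 3 together (55.2%). With 1 control left out it was 10 of 30 without control 1 (49.6%), 14 of 29 without control 2 (54.4%) and 1 of 16 without control 3 (54.8%). With 1 mutant left out it was 8 of 29 without il7 mutant 1 (51.4%), 2 of 30 without il7 mutant 2 (52.7%) and 10 of 18 without il7 mutant 3 (50.4%). Copies without overlap numbered 1, but 3 of 93 with no filter (7.78% of all features), 0 of 2 with the filter at 50 (7.22%), 4 of 36 without both oocyte-rich libraries (32.2%) and 3 of 7 without control 3 and il7 mutant 3 together (26.1%). With single libraries left out they ran from 0 of 29 without control 2 (15.1%) to 6 of 16 without control 3 (19.0%, or 3944 features), with 4 of 30 without il7 mutant 2 (20.8%). The cause of these moves was not tested beyond the samples and features removed. Same-numbered libraries correlated at −0.51, −0.40 and 0.51 in their deviations from the group means, and control 1 correlated with il7 mutant 2 at 0.73. Deviations from means of 3 libraries cannot show whether the numbers pair the libraries. With the replicate block 0 genes were called and pimr171 stood at −4.07. Both planned count-model tests, by edgeR and DESeq2, were not run, for the reason given with the processing, and TMM factors were computed without edgeR.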

Other observations

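The summed T cell, B cell, neutrophil, thrombocyte and macrophage markers did not follow the order of libraries seen in the pimr copies. The T cell list summed to 292, 430 and 375 normalized counts in controls 1, 2 and 3 and to 461, 284 and 670 in il7 mutants 1, 2 and 3. The B cell list ranged from 4735 to 6874 in controls and from 3483 to 7599 in mutants, the neutrophil list from 151920 to 244635 and from 165746 to 302378, the thrombocyte list from 1935 to 5751 and from 3724 to 4419, and the macrophage list from 5788 to 10197 and from 6098 to 8834. Nitr genes, with 9 members above 0, summed to 332, 181 and 265 in controls 1, 2 and 3 and to 104, 83.3 and 142 in il7 mutants 1, 2 and 3.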
